A study of Mus musculus with 24 samples.

Results

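The genes that build the classical MHC class I molecule and load it with peptide were examined in long-term haematopoietic stem cells (LT-HSCs) of mice given pegylated interferon alpha (pegIFN) or vehicle. The set was chosen by name, as the gene table's entries for Nlrc5, H2-K1, H2-D1, B2m, Tap1, Tap2, Tapbp, Tapbpl and Erap1. These are 9 of the 38215 genes in the table, and the rule goes by name. The 9 genes and the lists of other genes below were chosen with earlier results of these data known. Their counts beside the shares over all genes are therefore descriptions. Proteasome subunits were left out of the set and are described as neighbours in the pathway.

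Class I molecules show peptides from inside a cell to CD8 T cells and natural killer cells. Peptides cut in the cytosol cross into the endoplasmic reticulum through the Tap1-Tap2 transporter, are trimmed by Erap1, and are fitted by tapasin (Tapbp) and its relative Tapbpl into a heavy chain (H2-K1 or H2-D1 in this strain) paired with B2m. Nlrc5 is a transcriptional coactivator of class I genes. Interferons raise class I on many cell types, and blood stem cells carry class I on their surface.

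Lethally irradiated Ptprc a/b C57BL/6J recipients received equal parts of bone marrow from a Jak2 fl-V617F/+, Tg(E2A-cre) donor (CD45.2) and from a congenic Jak2+/+ Ptprca donor (CD45.1, labelled C57Bl/6N). Jak2V617F is the activating kinase mutation of myeloproliferative neoplasms, and E2A-cre drives a broadly active recombinase. The pegIFN recipients had 600 ng under the skin each week, in 5 doses over 4 weeks, and the vehicle recipients had PBS with bovine serum albumin. Cells were sorted 48 h after the last dose as lineage-negative Sca1+ cKit+ CD150+ CD48- and divided by the CD45 allele. Each of the 4 groups, Jak2V617F pegIFN, Jak2V617F vehicle, WT pegIFN and WT vehicle, held 6 libraries of polyadenylated RNA. By the numbers in the library names, 12 recipients each gave 1 library of either genotype, so WT and mutant cells shared a marrow and its treatment. Ages are not given in the sources used here.

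Total counts per library ran from 24.6 M to 39.7 M (M for mega), and every one of the 9 genes passed the filter on low counts, with the lowest single count at 699 (Tapbpl). Sex-linked genes went with genotype: Xist was at 2.996 to 110 CPM in 11 Jak2V617F libraries and 1801 to 3310 CPM in 11 WT libraries, and the sum of Y-linked genes at 158 to 243 CPM in these Jak2V617F and 2.17 to 75.7 CPM in these WT libraries. The other 2 libraries were between on Xist, Jak2V617F pegIFN replicate 1 with 654 CPM (Y-linked sum 149 CPM) and WT vehicle replicate 4 with 599.8 CPM (Y-linked sum 249.6 CPM). Genotype and the sex of the donor cells therefore cannot be told apart in these data. Of 8 LT-HSC markers, 1 rose and 6 fell with pegIFN in Jak2V617F cells (median log2 fold change -0.90), and 1 rose and 6 fell in WT cells (-1.09). Among all genes tested, 21.7% rose and 22.3% fell in Jak2V617F cells, and 28.2% rose and 28.7% fell in WT cells. Fgd5 averaged 4.65 ± 3.12 CPM in Jak2V617F pegIFN against 27.3 ± 6.16 CPM in Jak2V617F vehicle libraries, and 6.998 ± 3.24 CPM in WT pegIFN against 38.4 ± 10.1 CPM in WT vehicle libraries (SD, n = 6 each). Procr, Hlf, Mecom, Meis1 and Kit also fell in both genotypes, Slamf1 (CD150) was not called, and Ly6a (Sca1, itself induced by interferon) was the marker that rose, at 2.31 ± 0.20 in Jak2V617F and 2.00 ± 0.20 in WT cells. Of 3 tested markers listed as absent from the gate, 1 rose and 2 fell in each genotype. Their median was -1.02 in Jak2V617F and -1.40 in WT cells. The marker that rose was Cd48, which the gate excludes, at 1.42 ± 0.19 in Jak2V617F and 1.76 ± 0.19 in WT cells. The V617F base change cannot be read from counts per gene, and Jak2 itself was at -0.30 ± 0.07 in Jak2V617F against WT cells under pegIFN and at -0.22 ± 0.07 under vehicle. In these pooled cells, a larger share of cells of a high-expressing type and more RNA per cell cannot be told apart.

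The promoters of the genes are shown first, because the heavy chains and B2m are textbook examples of a shared promoter module: an enhancer with a kappa-B site, an interferon-stimulated response element, and an SXY module whose X2 box is bound by CREB/ATF factors and whose inverted CCAAT box is bound by NF-Y, with Nlrc5 docking on the complex. Of the 9 genes, 6 had a RefSeq promoter window on GRCm38.p6, from 250 bases before to 50 after the transcription start. Each window was searched on both strands for an ISRE core (GAAANNGAA), a GAS core (TTCNNNGAA), a CCAAT box (CCAAT), a CRE-like site (TGACG) and a kappa-B site (GGGGATTCC). The 250 bases before the start are printed 5′ to 3′ on the gene's own strand, with matches in capitals. H2-K1 lies at chr17:34000334-34000583 (minus strand, the window whose start is that of the deposited table), H2-D1 at chr17:35262844-35263093 (plus), B2m at chr2:122147437-122147686 (plus), Tap1 at chr17:34187306-34187555 (plus), Tapbp at chr17:33919228-33919477 (plus) and Erap1 at chr13:74639603-74639852 (plus). The RefSeq starts of H2-D1 and Tapbp lie downstream of the gene starts in the deposited table, inside the listed gene span.
H2-K1: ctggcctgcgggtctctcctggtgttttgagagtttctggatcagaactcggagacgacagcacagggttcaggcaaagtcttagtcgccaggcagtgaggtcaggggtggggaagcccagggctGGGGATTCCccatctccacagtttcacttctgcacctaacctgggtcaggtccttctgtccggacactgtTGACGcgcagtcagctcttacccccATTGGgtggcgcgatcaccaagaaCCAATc
H2-D1: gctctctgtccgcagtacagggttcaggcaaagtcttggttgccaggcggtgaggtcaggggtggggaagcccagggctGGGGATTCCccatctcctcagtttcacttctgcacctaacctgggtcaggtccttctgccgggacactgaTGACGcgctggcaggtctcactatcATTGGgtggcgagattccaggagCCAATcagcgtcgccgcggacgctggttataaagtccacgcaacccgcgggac
B2m: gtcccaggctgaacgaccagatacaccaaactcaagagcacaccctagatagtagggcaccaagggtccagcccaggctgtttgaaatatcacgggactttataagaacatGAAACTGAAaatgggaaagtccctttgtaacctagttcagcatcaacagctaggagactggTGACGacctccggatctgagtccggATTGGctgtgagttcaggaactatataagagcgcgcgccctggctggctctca
Tap1: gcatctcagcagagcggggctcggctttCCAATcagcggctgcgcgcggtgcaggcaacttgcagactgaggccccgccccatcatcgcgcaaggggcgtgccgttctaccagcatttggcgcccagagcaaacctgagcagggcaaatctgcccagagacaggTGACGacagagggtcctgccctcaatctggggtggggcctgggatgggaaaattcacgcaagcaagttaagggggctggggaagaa
Tapbp: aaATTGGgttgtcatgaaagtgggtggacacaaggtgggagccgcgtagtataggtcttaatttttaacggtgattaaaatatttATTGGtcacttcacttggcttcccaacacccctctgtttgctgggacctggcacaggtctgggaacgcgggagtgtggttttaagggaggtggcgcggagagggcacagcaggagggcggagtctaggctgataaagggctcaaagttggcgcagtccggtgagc
Erap1: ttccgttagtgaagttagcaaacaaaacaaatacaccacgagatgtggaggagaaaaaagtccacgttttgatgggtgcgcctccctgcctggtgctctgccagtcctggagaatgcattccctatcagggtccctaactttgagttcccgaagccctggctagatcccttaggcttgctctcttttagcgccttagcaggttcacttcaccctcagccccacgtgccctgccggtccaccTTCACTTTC

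Both heavy chain windows held a kappa-B match, a CRE-like site, an inverted CCAAT box (ATTGG) and a CCAAT box in the same order. The kappa-B letters occurred in 0.25% of the 32851 windows of this length, the CRE-like site in 20.8% and the CCAAT box on either strand in 37.4%. In H2-K1 the CRE-like site began 55 bases before the start, and in H2-D1 101 bases before it. B2m had the CRE-like site 78 bases before its start. In all of these genes exactly 20 bases separated the CRE-like site from the inverted CCAAT box, a spacing looked for after the matches were seen and found in 0.0944% of windows, from 27 genes. B2m also had an ISRE core match (GAAACTGAA) 139 bases before its start, and Erap1 had overlapping matches on the other strand (TTCACTTTC) that run across its start. ISRE core letters stood in 8.56% of windows and GAS core letters in 8.3%, and no GAS core was found in the windows of the 6 genes. Neither heavy chain window matched the ISRE core letters. Both held the letters tttcacttc after the kappa-B match, which the searched pattern cannot match on either strand. An interferon response element with other letters would therefore be missed, and the lack of a match does not show that it is absent. Tap1 held a CCAAT box and a CRE-like site without that spacing, and Tapbp held 2 inverted CCAAT boxes. A match is a string of letters and not a tested binding site.

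Counts were tested with edgeR's quasi-likelihood F test over 15879 genes, fold changes are log2 with their standard error, and a gene was called at a Benjamini-Hochberg adjusted p under 0.05. Levels are CPM (a gene's count relative to the total of its library, scaled by TMM), given as lowest, median and highest of 6 libraries. With pegIFN 6 of the 9 genes rose in Jak2V617F cells and the same 6 rose in WT cells: Nlrc5, both heavy chains, B2m, Tap1 and Tapbp. Tap2 was not called in either genotype, and Tapbpl and Erap1 had negative fold changes. Over all genes tested, 21.7% were called higher and 22.3% lower with pegIFN in Jak2V617F cells, and 28.2% higher and 28.7% lower in WT cells. The median log2 fold change of the 9 genes was 0.51 in Jak2V617F and 0.50 in WT cells, against -0.01 over all genes in both.

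**Figure D1:**
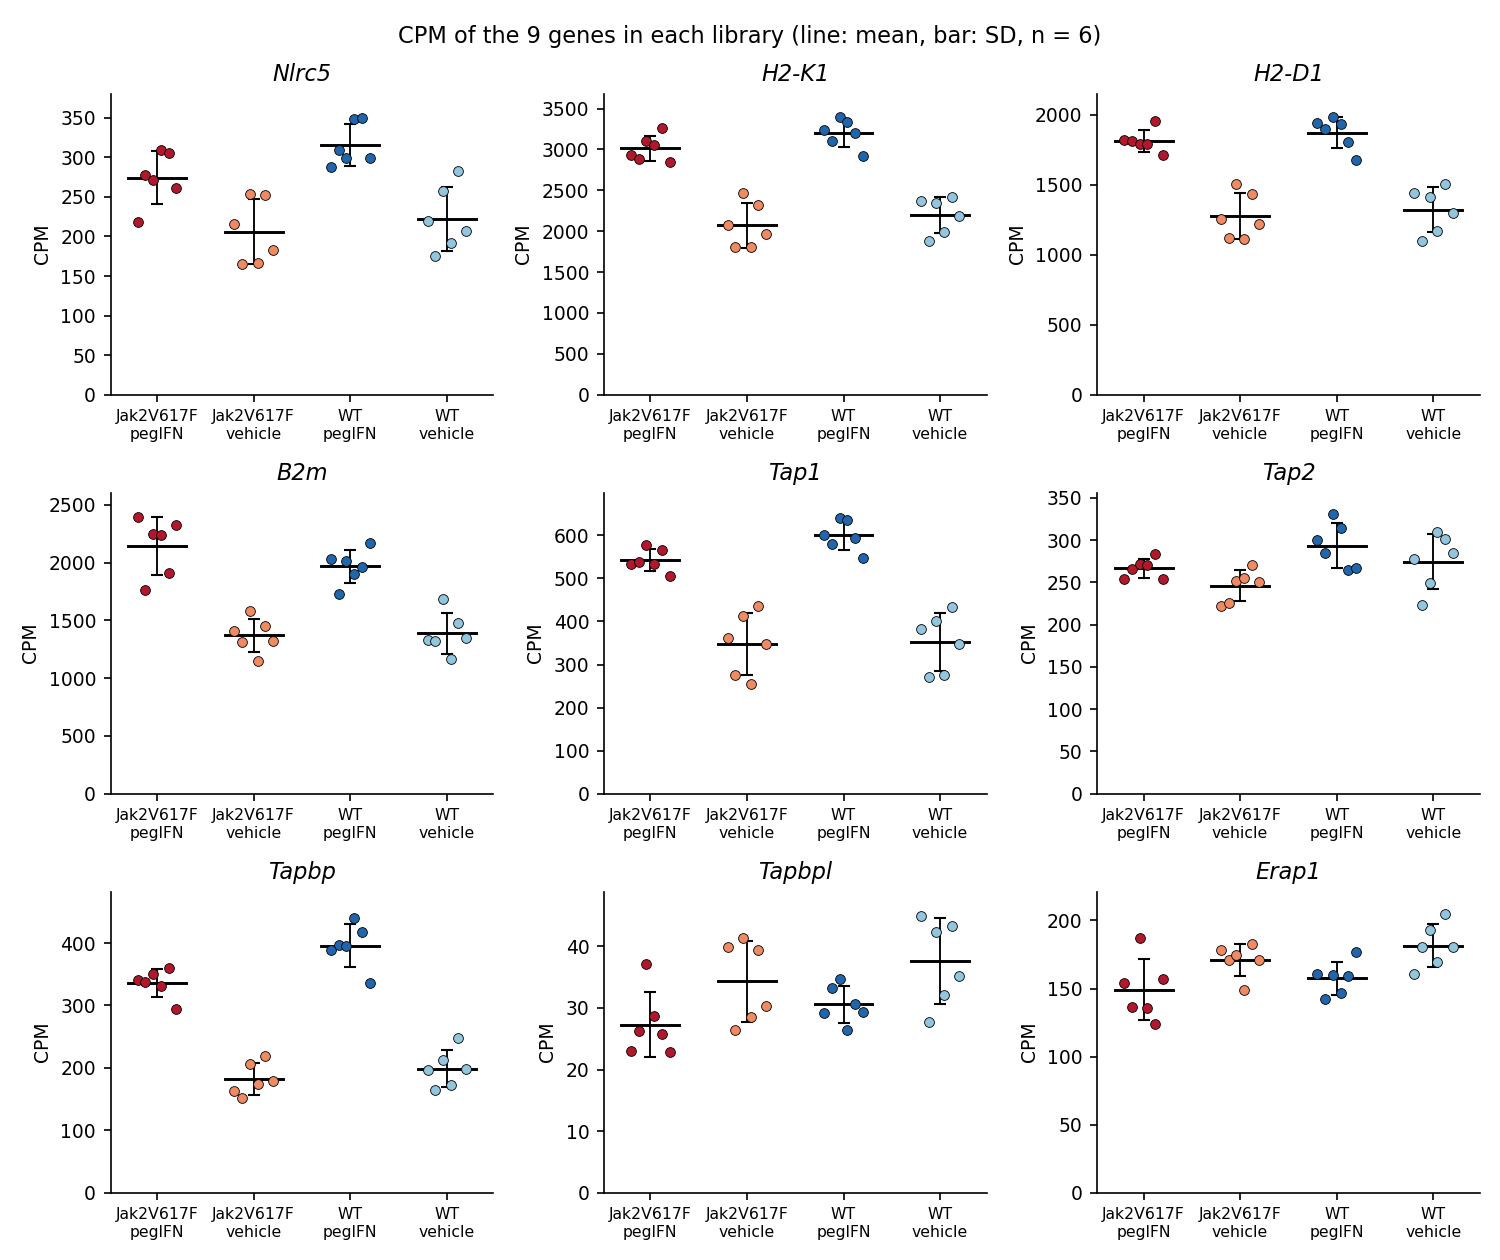
CPM of the 9 genes in each of the 24 libraries, 1 panel per gene, with the mean (line) and SD (bar) of 6 libraries per group. For H2-K1 the pegIFN libraries sit between 2845 and 3395 CPM and the vehicle libraries between 1801 and 2464 CPM, while the groups of Tap2 overlap.

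Nlrc5 (chr8:94472763-94527272, plus strand, GRCm38), the coactivator, had 218, 275 and 309.8 CPM in Jak2V617F pegIFN libraries, against 165, 199.6 and 254 CPM in Jak2V617F vehicle libraries. In WT cells it had 288, 305 and 349.8 CPM with pegIFN, against 175, 213 and 283 CPM with vehicle. It rose by 0.41 ± 0.12 in Jak2V617F (adjusted p = 0.0074) and by 0.51 ± 0.12 in WT cells (adjusted p = 0.00088, edgeR). The WT groups did not overlap, and in Jak2V617F cells the lowest pegIFN library lay among the vehicle libraries. The deposited table lists Nlrc5 under a non-coding biotype, although it encodes a protein.

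H2-K1 (chr17:33996017-34000333, minus strand), the heavy chain of K molecules, had 2845, 2989 and 3264 CPM in Jak2V617F pegIFN libraries, against 1801, 2019 and 2464 CPM in Jak2V617F vehicle libraries. WT pegIFN libraries had 2917, 3216 and 3395 CPM, against 1877, 2269 and 2423 CPM in WT vehicle libraries. All pegIFN libraries were above all vehicle libraries of their genotype. The change was 0.54 ± 0.07 in both Jak2V617F (adjusted p = 5.1e-06, edgeR) and WT cells (adjusted p = 1.8e-06, edgeR), a fold of 1.45.

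H2-D1 (chr17:35262730-35267499, plus strand), the heavy chain of D molecules, had 1711, 1803 and 1955 CPM in Jak2V617F pegIFN libraries, against 1113, 1239 and 1508 CPM in Jak2V617F vehicle libraries. In WT cells the values were 1676, 1919 and 1981 CPM with pegIFN, against 1098, 1358 and 1504 CPM with vehicle. It rose by 0.51 ± 0.08 in Jak2V617F (adjusted p = 1.8e-05) and 0.50 ± 0.08 in WT cells (adjusted p = 7.6e-06, edgeR), with no overlap of groups. H2-K1 and H2-D1 are near-identical in sequence to each other and to further class I genes, and the deposited counts of both were fractions in 24 of 24 libraries, because reads that match several genes are divided. With the 18 classical and related class I genes summed into 1 feature, the change was 0.54 ± 0.08 in Jak2V617F (adjusted p = 1e-05) and 0.57 ± 0.08 in WT cells (adjusted p = 1.8e-06, edgeR).

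B2m (chr2:122147686-122153083, plus strand), the light chain shared by all class I molecules, had 1759.9, 2238 and 2394 CPM in Jak2V617F pegIFN libraries, against 1149.6, 1364 and 1578 CPM in Jak2V617F vehicle libraries. WT pegIFN libraries had 1730.1, 1988 and 2165 CPM, against 1162, 1337 and 1683 CPM in WT vehicle libraries. It rose by 0.65 ± 0.09 in Jak2V617F (adjusted p = 3.4e-06) and by 0.50 ± 0.09 in WT cells (adjusted p = 2.7e-05, edgeR). The groups did not overlap in either genotype.

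By summed CPM, the heavy chains and B2m together made up 0.697 ± 0.0268% of the TMM-scaled library total in Jak2V617F pegIFN libraries, against 0.472 ± 0.0572% in Jak2V617F vehicle libraries. They made up 0.704 ± 0.0261% in WT pegIFN and 0.491 ± 0.0511% in WT vehicle libraries (SD, n = 6 each). The ratio of H2-K1 to H2-D1 counts was 1.66 ± 0.05 in Jak2V617F pegIFN and 1.62 ± 0.02 in Jak2V617F vehicle libraries, and 1.71 ± 0.05 in WT pegIFN and 1.67 ± 0.04 in WT vehicle libraries. The ranges of all 4 groups overlap on this ratio.

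Tap1 (chr17:34187553-34197225, plus strand), one subunit of the peptide transporter, had 506, 536 and 578 CPM in Jak2V617F pegIFN libraries, against 256, 354 and 437 CPM in Jak2V617F vehicle libraries. In WT cells it had 547, 598 and 640.5 CPM with pegIFN, against 270.4, 365 and 433 CPM with vehicle. It rose by 0.64 ± 0.12 in Jak2V617F (adjusted p = 0.00012) and by 0.77 ± 0.12 in WT cells (adjusted p = 5.7e-06, edgeR). No pegIFN library reached down to the vehicle libraries. Tap1 shares its locus with the immunoproteasome subunit Psmb9 on the opposite strand, which had 32.3% of the Tap1 count and also rose, and the strand setting of the counting is not given in the sources used here.

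Tap2 (chr17:34203527-34216321, plus strand), the other subunit, had 254, 268 and 283 CPM in Jak2V617F pegIFN libraries, against 222, 251 and 270.3 CPM in Jak2V617F vehicle libraries. WT pegIFN libraries had 265, 292 and 331 CPM, against 224, 281 and 309 CPM in WT vehicle libraries. The groups overlapped in both genotypes. Its difference was 0.12 ± 0.07 in Jak2V617F (95% interval -0.03 to 0.26, adjusted p = 0.19) and 0.10 ± 0.07 in WT cells (-0.05 to 0.24, adjusted p = 0.25, edgeR). The upper ends of these intervals lie below the Tap1 estimate of the same genotype, and the difference between the subunits was not tested.

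Per kilobase of transcript, Tap1 stood at 2.37 ± 0.07 times Tap2 in Jak2V617F pegIFN and 1.65 ± 0.31 times in Jak2V617F vehicle libraries, and at 2.39 ± 0.12 times in WT pegIFN and 1.505 ± 0.287 times in WT vehicle libraries (SD, n = 6 each). The lowest pegIFN ratio was 2.26 and the highest vehicle ratio 1.91, so the treatments did not overlap. B2m per kilobase was 0.919 ± 0.128 times the summed heavy chains in Jak2V617F pegIFN and 0.847 ± 0.0488 times in Jak2V617F vehicle libraries, and 0.801 ± 0.0900 times in WT pegIFN and 0.813 ± 0.0850 times in WT vehicle libraries, with overlap throughout. These ratios are descriptions and were not tested.

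**Figure D2:**
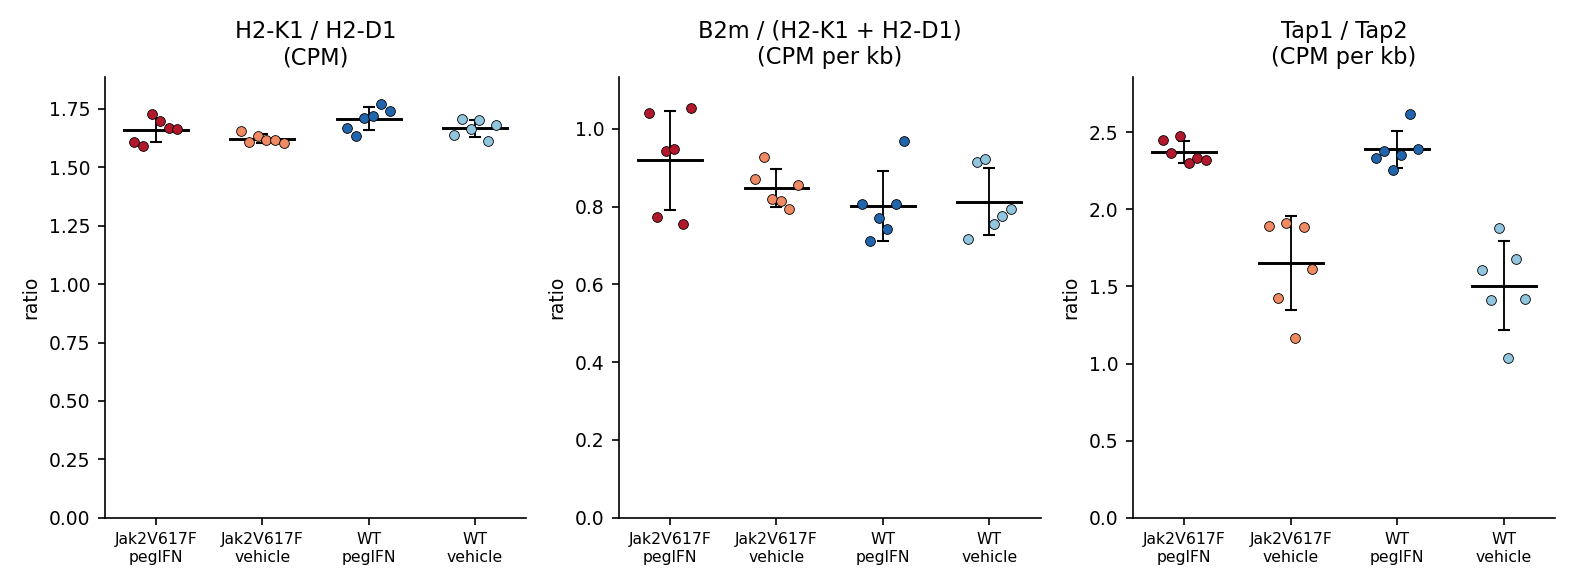
Ratios of levels in each library with the mean (line) and SD (bar) of 6 libraries per group: H2-K1 to H2-D1 in CPM, B2m to the sum of H2-K1 and H2-D1 in CPM per kilobase, and Tap1 to Tap2 in CPM per kilobase. The Tap1 to Tap2 ratio is 2.26 or higher in all pegIFN libraries and 1.91 or lower in all vehicle libraries, and the other ratios overlap between treatments.

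Tapbp (chr17:33915899-33929288, plus strand), the tapasin bridge between transporter and heavy chain, had 294, 339 and 361 CPM in Jak2V617F pegIFN libraries, against 151, 176 and 219 CPM in Jak2V617F vehicle libraries. WT pegIFN libraries had 336, 396 and 441 CPM, against 165, 197 and 248 CPM in WT vehicle libraries. Its increase of 0.89 ± 0.09 in Jak2V617F (fold 1.85, adjusted p = 8.3e-08) and 0.99 ± 0.09 in WT cells (fold 1.99, adjusted p = 5.5e-09, edgeR) was the largest of the 9 genes in both genotypes. Of all genes tested, 2.82% in Jak2V617F and 2.88% in WT cells had a larger log2 fold change. The groups did not overlap. Zbtb22, which overlaps Tapbp on the same strand with 17.3% of its count, had a difference of -0.01 ± 0.10 in Jak2V617F and 0.03 ± 0.10 in WT cells and was not called in either.

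Tapbpl (chr6:125223933-125231860, minus strand), the second peptide editor, was the lowest of the genes, with 22.8, 26.0 and 37.2 CPM in Jak2V617F pegIFN libraries, against 26.4, 34.9 and 41.3 CPM in Jak2V617F vehicle libraries. In WT cells it had 26.5, 30.01 and 34.6 CPM with pegIFN, against 27.8, 38.8 and 44.98 CPM with vehicle. The groups overlapped in both genotypes. The difference was -0.33 ± 0.13 in Jak2V617F (adjusted p = 0.048) and -0.30 ± 0.13 in WT cells (adjusted p = 0.059, edgeR), on either side of the threshold at nearly the same size. Leaving out 1 library changed these calls often: in Jak2V617F cells it was lost (highest adjusted p = 0.11) without any 1 of 13 of the 24 libraries, namely Jak2V617F pegIFN replicates 1, 2, 4, 5 and 6, Jak2V617F vehicle replicates 1, 3 and 5, WT pegIFN replicates 1, 2, 5 and 6 and WT vehicle replicate 6, and in WT cells it was gained without WT vehicle replicate 2 (0.023), WT vehicle replicate 4 (0.042) or Jak2V617F pegIFN replicate 3 (0.043). Vamp1, on the opposite strand, had 91.3% of the Tapbpl count and itself fell with pegIFN, at -0.60 ± 0.13 in Jak2V617F and -0.68 ± 0.13 in WT cells.

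Erap1 (chr13:74639872-74691875, plus strand), the trimming peptidase, had 124, 145 and 187 CPM in Jak2V617F pegIFN libraries, against 149, 173 and 183 CPM in Jak2V617F vehicle libraries. WT pegIFN libraries had 142, 159 and 177 CPM, against 160.3, 181 and 205 CPM in WT vehicle libraries. It fell by 0.20 ± 0.08 on the log2 scale in both Jak2V617F (adjusted p = 0.048) and WT cells (adjusted p = 0.033, edgeR), and the groups overlapped. The WT call was lost (adjusted p of 0.055 to 0.11) without any 1 of WT pegIFN replicates 1, 2, 3, 4 and 5 or WT vehicle replicates 2, 3, 5 and 6, and the Jak2V617F call (highest adjusted p = 0.13) without any 1 of 17 of the 24 libraries. These were Jak2V617F pegIFN replicates 1, 2, 4, 5 and 6, Jak2V617F vehicle replicates 1, 2, 3, 5 and 6, WT pegIFN replicates 1, 3, 4 and 5 and WT vehicle replicates 2, 3 and 6.

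**Figure D3:**
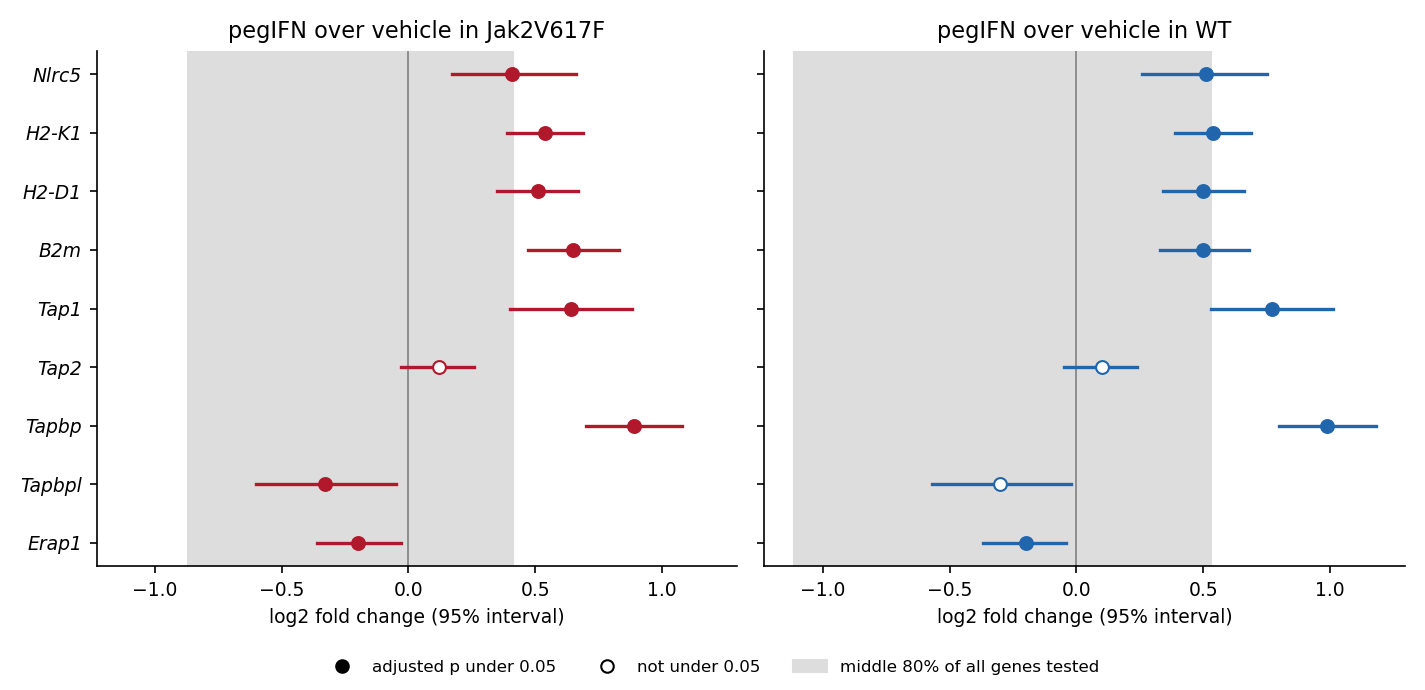
Log2 fold change of pegIFN over vehicle with its 95% interval (edgeR) for each gene in Jak2V617F (left) and WT cells (right). Filled points have an adjusted p under 0.05, and the grey band spans the middle 80% of all 15879 genes, from -0.87 to 0.41 in Jak2V617F and from -1.12 to 0.53 in WT cells. Tapbp lies farthest to the right in both panels, at 0.89 and 0.99.

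All 6 pegIFN libraries lay above all 6 vehicle libraries for 5 of the 9 genes in Jak2V617F and for 6 of the 9 in WT cells. Over all genes tested the share was 9.81% in Jak2V617F and 15.1% in WT cells. Without the 2 libraries between the others on Xist, 6 of the 9 genes were again called higher in each genotype. Markers of antigen-presenting cells, the class II genes among them, fell with pegIFN in 5 of 5 cases in Jak2V617F and 5 of 5 in WT cells, where 22.3% (Jak2V617F) and 28.7% (WT) of all genes fell. Their sum was 138 to 469.7 CPM in Jak2V617F pegIFN against 258 to 757 CPM in Jak2V617F vehicle libraries, and 151 to 254 CPM in WT pegIFN against 232 to 763 CPM in WT vehicle libraries. Of the 6 T and NK cell markers only Nkg7 averaged 1 CPM or more in any group. Nkg7 rose with pegIFN, at 118 ± 18.9 CPM in Jak2V617F pegIFN against 64.6 ± 7.86 CPM in Jak2V617F vehicle libraries, and 85.3 ± 12.5 CPM in WT pegIFN against 46.4 ± 14.9 CPM in WT vehicle libraries, while Cd3e averaged under 1 CPM in every group. The sum of 4 megakaryocyte markers was 1382 to 1976 CPM in Jak2V617F pegIFN against 807 to 1745 CPM in Jak2V617F vehicle libraries, and 1080.3 to 1715 CPM in WT pegIFN against 546 to 1466 CPM in WT vehicle libraries. Of 4 erythroid markers 3 fell in Jak2V617F and 3 in WT cells, and their sum did not overlap between treatments, at 2.90 to 20.9 CPM in Jak2V617F pegIFN against 40.1 to 129.7 CPM in Jak2V617F vehicle libraries, and 11.8 to 20.7 CPM in WT pegIFN against 48.3 to 273 CPM in WT vehicle libraries. The part of any of these cell types, or of the lower LT-HSC markers, in the result was not tested. B cell marker sums reached 63.1 CPM in Jak2V617F pegIFN against 228 CPM in Jak2V617F vehicle libraries, and 73.6 CPM in WT pegIFN against 322 CPM in WT vehicle libraries, with the highest sums in pegIFN replicate 2 and vehicle replicate 5. Without those 2 mice, a setting chosen after seeing the marker values, 6 of the 9 genes were again called higher in each genotype, and none was called lower.

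Per kilobase of transcript, B2m was the most abundant of the genes in every group, with means of 2494 ± 292 CPM per kilobase in Jak2V617F pegIFN and 1593 ± 168 in Jak2V617F vehicle, and 2287 ± 169 in WT pegIFN and 1612 ± 206 in WT vehicle libraries. H2-K1 followed at 1860.4 ± 96.8 CPM per kilobase in Jak2V617F pegIFN and 1279.9 ± 169 in Jak2V617F vehicle, and 1975 ± 105 in WT pegIFN and 1359 ± 137 in WT vehicle libraries. The ranges of B2m and H2-K1 overlapped in all groups but Jak2V617F pegIFN. H2-D1 came next, at 863 ± 37.7 CPM per kilobase in Jak2V617F pegIFN and 607 ± 77.6 in Jak2V617F vehicle libraries, and then Tap1, at 184 ± 8.71 in Jak2V617F pegIFN and 118 ± 24.3 in Jak2V617F vehicle libraries (SD, n = 6). Below these the order depended on treatment. Tapbp exceeded Tap2 without overlap under pegIFN, at 116 ± 7.89 against 77.5 ± 3.26 CPM per kilobase in Jak2V617F and 137 ± 12.04 against 85.3 ± 7.68 in WT cells. Under vehicle their ranges overlapped, with Tapbp at 62.7 ± 8.86 and Tap2 at 71.5 ± 5.35 CPM per kilobase in Jak2V617F cells. Nlrc5 and Erap1 also overlapped under vehicle, at 27.2 ± 5.36 and 30.3 ± 2.09 CPM per kilobase in Jak2V617F cells. Tapbpl was lowest in every group, with means from 11.6 to 15.99 CPM per kilobase.

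Other genes of the pathway are given from lists written for this purpose, as members called by edgeR. Over all genes tested, 21.7% rose and 22.3% fell with pegIFN in Jak2V617F cells, and 28.2% rose and 28.7% fell in WT cells. Of 5 genes of the immunoproteasome and its activator, which cut cytosolic proteins into peptides, 5 rose in Jak2V617F and 5 in WT cells with pegIFN. The catalytic subunit Psmb8 was at 0.54 ± 0.07 in Jak2V617F (adjusted p = 1.5e-06) and 0.67 ± 0.07 in WT cells (adjusted p = 2e-08), and the activator subunit Psme2 at 0.57 ± 0.09 in Jak2V617F and 0.64 ± 0.09 in WT cells. The median of the list was 0.51 in Jak2V617F and 0.60 in WT cells. Of 9 chaperones that fold and glucose-trim the heavy chain, 6 rose in Jak2V617F and 9 in WT cells, with the glucosidase Mogs at 0.44 ± 0.08 in Jak2V617F and 0.73 ± 0.08 in WT cells. The list median was 0.24 in Jak2V617F and 0.30 in WT cells, and none fell. Of 7 cytosolic and endosomal peptidases, 4 rose and 1 fell in Jak2V617F and 5 rose and 1 fell in WT cells. Thop1, a cytosolic oligopeptidase, rose by 0.59 ± 0.10 in Jak2V617F and 0.79 ± 0.10 in WT cells. Lnpep, the endosomal relative of Erap1, fell by 0.46 ± 0.08 in Jak2V617F and 0.53 ± 0.08 in WT cells on the log2 scale. The list median was 0.16 in Jak2V617F and 0.14 in WT cells.

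Of 16 factors that bind class I promoters, 4 rose and 5 fell in Jak2V617F, where 21.7% of all genes rose and 22.3% fell, and 7 rose and 6 fell in WT cells, where 28.2% rose and 28.7% fell, with a list median of -0.01 in Jak2V617F and 0.10 in WT cells. Those that rose included Stat2, a transcription factor of the type I interferon response, at 1.80 ± 0.12 in Jak2V617F (adjusted p = 1.2e-11) and 1.77 ± 0.12 in WT cells (adjusted p = 1.4e-11), and Irf9, which binds interferon response elements, at 0.96 ± 0.09 in Jak2V617F and 0.92 ± 0.09 in WT cells. Rfx5, a subunit of the RFX complex that binds the X1 box, fell by 0.40 ± 0.09 in Jak2V617F (adjusted p = 0.00054) and 0.48 ± 0.08 in WT cells (adjusted p = 3.9e-05). Ciita, the class II counterpart of Nlrc5, fell by 1.58 ± 0.30 in Jak2V617F (adjusted p = 0.00018) and 1.37 ± 0.29 in WT cells (adjusted p = 0.00035).

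Of 13 tested class I related genes, which are paralogs of the heavy chains with narrower roles, 9 rose and 1 fell in each genotype, with list medians of 0.44 in Jak2V617F and 0.45 in WT cells. The shares over all genes were 21.7% higher and 22.3% lower in Jak2V617F, and 28.2% higher and 28.7% lower in WT cells. H2-T24 rose by 1.92 ± 0.14 in Jak2V617F (adjusted p = 1.5e-10) and 2.23 ± 0.14 in WT cells (adjusted p = 7.2e-12), and H2-T10 by 0.82 ± 0.09 in Jak2V617F and 0.82 ± 0.09 in WT cells. H2-T3 was the one that fell, at -3.22 ± 0.47 in Jak2V617F and -1.93 ± 0.42 in WT cells. Its level was very low throughout, with means of 0.226 CPM in Jak2V617F pegIFN against 2.13 CPM in Jak2V617F vehicle libraries. In WT cells the means were 0.704 CPM with pegIFN against 2.68 CPM with vehicle. Of the 4 non-classical partners of B2m outside this family, 3 fell in Jak2V617F and 4 in WT cells, none rose, and the list median was -0.65 in Jak2V617F and -0.75 in WT cells. Fcgrt, the neonatal Fc receptor, fell by 1.45 ± 0.22 in Jak2V617F (adjusted p = 1.9e-05) and 2.00 ± 0.22 in WT cells (adjusted p = 1.1e-07), and Cd1d1, which presents lipids, fell by 0.89 ± 0.10 in Jak2V617F and 0.81 ± 0.10 in WT cells. The iron regulator Hfe was at -0.15 ± 0.22 in Jak2V617F (adjusted p = 0.63) and -0.58 ± 0.23 in WT cells (adjusted p = 0.031), a call lost (highest adjusted p = 0.16) without any 1 of WT pegIFN replicates 1, 2, 5 and 6 or WT vehicle replicates 1, 2 and 5.

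None of the 9 genes differed between Jak2V617F and WT cells by the unblocked edgeR test. Over all genes, 4.16% were called higher and 4.43% lower in Jak2V617F cells under pegIFN, and 8.48% higher and 4.23% lower under vehicle. At an unadjusted p under 0.05 there was 1 of the 9 genes in either comparison, Tapbp under pegIFN and Tap2 under vehicle, where 24.2% of all genes under pegIFN and 29.3% under vehicle were at such a p. DESeq2 called 0 of the 9 in both. For all 9 genes the groups overlapped between the genotypes. Groups without overlap were rare over all genes tested. Under pegIFN 1.65% lay apart with Jak2V617F higher and 1.81% with it lower, and under vehicle 1.76% and 1.15%. Under pegIFN the H2-K1 difference was -0.09 ± 0.07 (95% interval -0.24 to 0.07), that of H2-D1 -0.05 ± 0.08 (-0.21 to 0.11) and that of B2m 0.13 ± 0.09 (-0.05 to 0.30). Tapbp was at -0.24 ± 0.09 (adjusted p = 0.11), and it was called (-0.29, adjusted p = 0.039) without WT pegIFN replicate 6. Nlrc5, Tap1, Tap2, Tapbpl and Erap1 were at -0.21 to -0.08, with adjusted p of 0.23 to 0.60. Under vehicle Tap2 was at -0.16 ± 0.07 (adjusted p = 0.14), and it was called (-0.20, adjusted p = 0.043) without WT vehicle replicate 2. The other 8 genes were at -0.13 to -0.01 under vehicle, with adjusted p of 0.36 to 0.95.

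With the mouse as a block, which compares the mutant with the WT cells of the same marrow, small differences were called. The WT and mutant cells of a mouse still differ in donor sex by the sex-linked genes. Donor animal, CD45 allele and the E2A-cre transgene also go with genotype. The differences with the block and those without it therefore cannot be told apart from differences of sex, donor, CD45 allele or transgene. Under pegIFN Tapbp was at -0.23 ± 0.04 in Jak2V617F against WT cells (adjusted p = 0.00074), Nlrc5 was at -0.21 ± 0.04 (adjusted p = 0.0013), Tap1 at -0.14 ± 0.03 (adjusted p = 0.0062) and B2m at 0.12 ± 0.04 (adjusted p = 0.033, edgeR). Thus 3 of the 9 were lower and 1 higher in Jak2V617F cells, where 11.3% of all genes were called lower and 13.3% higher with this block. The direction was seen in 6 of 6 mice for Tapbp, Nlrc5 and Tap1, and in 5 of 6 for B2m. Within-mouse differences of Tapbp ran from -0.41 to -0.17 and those of Nlrc5 from -0.40 to -0.14 on the log2 scale, with Tapbp at its lowest in pegIFN replicate 4 and Nlrc5 in pegIFN replicate 1. The heavy chains were not called with the block, at -0.09 ± 0.04 for H2-K1 (adjusted p = 0.11) and -0.04 ± 0.04 for H2-D1 (adjusted p = 0.48). With limma-voom and the mouse as a random block, Tapbp (adjusted p = 0.0061) and Nlrc5 (adjusted p = 0.047) were called lower under pegIFN, and Tap1 and B2m were not called. Over all genes, limma-voom called 3859 of 15879 there, in either direction.

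Under vehicle the block called Tap2 at -0.15 ± 0.05 (adjusted p = 0.035), Tapbp at -0.13 ± 0.04 (adjusted p = 0.029) and Nlrc5 at -0.11 ± 0.04 (adjusted p = 0.042, edgeR), so 3 of the 9 were lower and 0 higher in Jak2V617F cells. Over all genes 13.6% were called lower and 17.5% higher there. Nlrc5 was lower in 6 of 6 vehicle mice, Tapbp in 5 and Tap2 in 4, and Tapbpl, which the block did not call (-0.13 ± 0.06, adjusted p = 0.13), was lower in 6 of 6. Of these, limma-voom with a random block called Tap2 (adjusted p = 0.034), and Tapbp and Nlrc5 were not called. Over all genes, limma-voom called 5257 of 15879 under vehicle, in either direction. B2m and Tap1 were at -0.01 ± 0.04 and -0.02 ± 0.03 with vehicle. The sum of 8 granulocyte and monocyte markers ran from 753 to 1274 CPM in Jak2V617F pegIFN against 155 to 535 CPM in WT pegIFN libraries, and from 316 to 1814 CPM in Jak2V617F vehicle against 291 to 882 CPM in WT vehicle libraries. Their part in the genotype differences was not tested.

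**Figure D4:**
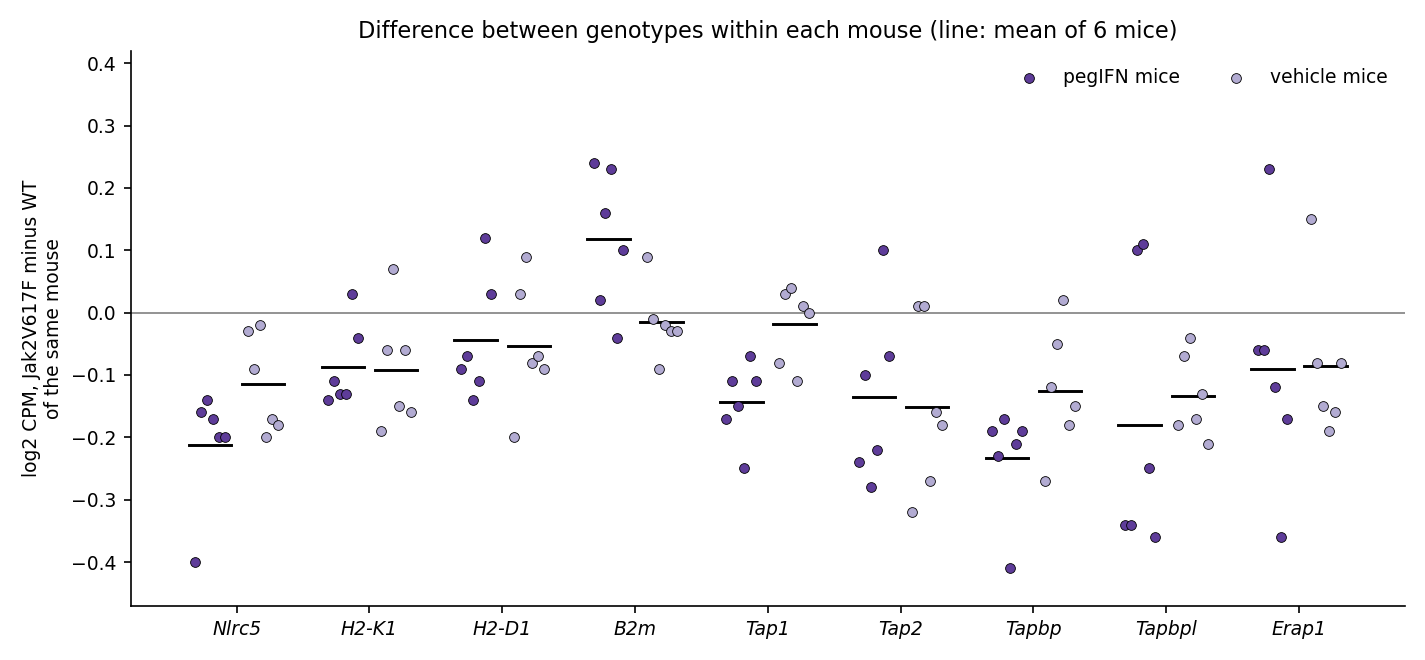
Log2 CPM of the Jak2V617F library minus that of the WT library of the same mouse, for 6 pegIFN mice and 6 vehicle mice per gene, with lines at the means. All pegIFN points of Nlrc5, Tap1 and Tapbp lie below 0, and 5 of 6 pegIFN points of B2m lie above it.

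In the lists around the 9 genes, the fits with and without the block also gave different counts. Over all genes, 4.16% were called higher in Jak2V617F cells under pegIFN and 8.48% under vehicle without a block, and 13.3% and 17.5% with the mouse block. Chaperones called higher in Jak2V617F cells numbered 1 of 9 under pegIFN and 4 of 9 under vehicle without a block, and 5 under pegIFN and 7 under vehicle with the mouse block. With 1 library left out the unblocked count was 0 to 1 under pegIFN and 0 to 6 under vehicle. The vehicle count was 2 or fewer without any 1 of Jak2V617F vehicle replicates 2, 3 and 5, WT pegIFN replicate 6 or WT vehicle replicates 1, 4, 5 and 6. Libraries whose removal lowered the count less or raised it are not listed. Pdia3, the oxidoreductase of the loading complex, was at 0.32 ± 0.09 under pegIFN (adjusted p = 0.030) and 0.34 ± 0.09 under vehicle (adjusted p = 0.016). Its call was lost under pegIFN (highest adjusted p = 0.092) without any 1 of Jak2V617F pegIFN replicates 1, 4 and 6 or WT pegIFN replicates 2, 3, 4 and 5, and under vehicle (0.059) without WT vehicle replicate 4. Lower in Jak2V617F cells were 4.43% of all genes under pegIFN and 4.23% under vehicle without a block, and 11.3% and 13.6% with the mouse block. Class I related genes called lower numbered 2 of 13 under pegIFN and 1 of 13 under vehicle without a block, and 9 under pegIFN and 7 under vehicle with it. The unblocked count was 1 to 3 under pegIFN with 1 library left out. It was 1 without any 1 of Jak2V617F pegIFN replicates 1, 2, 4, 5 and 6 or WT pegIFN replicates 3 and 4. Libraries whose removal raised the count to 3 are not listed. Under vehicle the unblocked count was 0 to 2, and changed without any 1 of Jak2V617F vehicle replicates 1, 2, 5 and 6 or WT vehicle replicates 1, 2, 3, 5 and 6. H2-T24 led them under pegIFN, at -0.60 ± 0.13 (adjusted p = 0.0092, unblocked).

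Whether the response to pegIFN itself differed between genotypes was tested by the interaction. Over all genes, edgeR called 0% higher and 0% lower, with 1338 genes at an unadjusted p under 0.05, and DESeq2 called 38. None of the 9 genes was called, none had an unadjusted p under 0.05, and their lowest adjusted p was 0.76. The interaction of H2-K1 was 0.00 ± 0.11 (95% interval -0.22 to 0.22), that of H2-D1 0.01 ± 0.11 (-0.22 to 0.23), that of Tapbp -0.11 ± 0.13 (-0.38 to 0.16) and that of B2m 0.14 ± 0.12 (-0.11 to 0.39). With the mouse as a block Tapbp was at -0.11 ± 0.06 and B2m at 0.13 ± 0.06 (adjusted p = 0.33 for Tapbp and 0.19 for B2m), again with none of the 9 called, where 1.28% of all genes were called higher and 2.05% lower with the block. A p above the threshold does not show that the genotypes responded alike.

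Beyond the group means, libraries varied together on some of these genes. After the mean of each group was removed, H2-K1 and H2-D1 correlated at r = 0.97 over the 24 libraries, H2-K1 and Tap1 at 0.93, Nlrc5 and H2-K1 at 0.84, and Tapbp with either heavy chain at 0.83 or 0.84. B2m stood aside from the heavy chains, at 0.46 with H2-K1 and 0.39 with H2-D1, and Erap1 and Tap2 were at 0.14 and 0.46 with H2-K1. Tapbpl, whose fold changes with pegIFN were negative, was at 0.76 with H2-K1 and Tap1, 0.71 with H2-D1 and 0.68 with Nlrc5. B2m and Erap1 correlated at 0.68. Points of the same mouse share a marrow, and H2-K1 and H2-D1 share reads, so these values are descriptions.

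**Figure D5:**
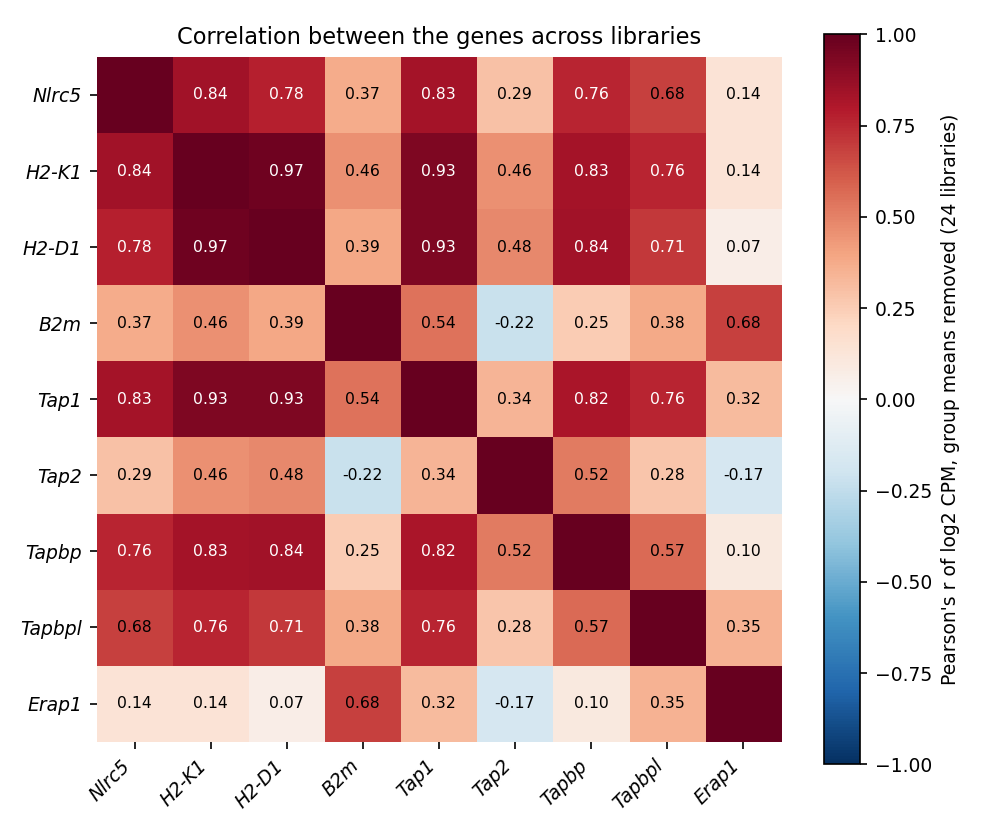
Pearson's r between the log2 CPM of each pair of genes over 24 libraries, after the mean of each group was removed, from blue (negative) to red (positive). Nlrc5, H2-K1, H2-D1, Tap1 and Tapbp have r from 0.76 to 0.97 among themselves and Tapbpl 0.57 to 0.76 with them, while B2m has 0.68 with Erap1 and 0.46 with H2-K1.

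Across all genes tested, the 5 most like H2-K1 by this measure were H2-D1 (r = 0.97), Tap1 (0.93), Psmb9 (0.92), H2-Q4 (0.90) and H2-T22 (0.88), and Nlrc5 ranked 12th. The 5 most like Nlrc5 were Igtp (0.92), Tdrd7, Parp14 and Irgm1 (0.91 each) and Gbp7 (0.89), with H2-K1 at rank 30 and Tap1 at rank 36. For B2m they were Ifi47 (0.94), Gm5530 and Golph3l (0.86 each), and Nmi and Naip2 (0.83 each), while H2-K1 ranked 1508th and H2-D1 2235th. No gene was in more than one of these lists of 5.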

How the data were processed

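RNA-seq of 24 LT-HSC libraries in 4 groups was used. Per the submitters' processing notes, cutadapt 1.11, STAR 2.5.2a, RSEM 1.2.30 and GRCm38 were used; the annotation release and strand setting are not given in the sources used here. The authors deposited RSEM expected counts per gene, of which 16.8% of values were not whole (tolerance 0.005), because shared reads are divided. Here they were rounded to whole numbers.

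Genes were filtered with edgeR's filterByExpr (minimum count 10), which kept 15879 genes and 99.95% of counts. TMM factors ran from 0.949 to 1.07. The main test was edgeR 4.0.16 (R 4.3.3), robust quasi-likelihood F test, over all 4 groups without a block, with Benjamini-Hochberg adjustment over all genes. limma 3.58.1 and DESeq2 1.42.0 were alternatives. The script was tested on simulated data. CPM per kilobase used GENCODE transcript lengths. Total counts of 24.6 M to 39.7 M (M for mega) limit counting error for the genes of the set, whose lowest single count was 699 (Tapbpl). For these genes the spread between libraries sets the precision (common biological coefficient of variation over all genes 18.6%). Counting error is not small for named genes of very low level, such as H2-T3, with a mean of 0.226 CPM in Jak2V617F pegIFN libraries.

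The numbers in the library names pair both genotypes of a mouse. Over 12 pairs, deviations from the group means correlated at 0.22 to 0.82 (median 0.62), and 11 of 12 pairs correlated best with their own number. The block values are therefore printed beside the genotype results. The labels do not say more about how mice were sampled. The unblocked test treats the WT and Jak2V617F libraries of a mouse as independent, and its p-values measure the spread between these libraries within groups. The p-values with the mouse block measure the spread of the genotype differences within these mice.

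Genes named outside the 9 were among the up to 4 with the smallest p of a pathway list in a comparison, the 5 most correlated with Nlrc5, H2-K1 or B2m, or checks; cell type markers and genes overlapping the 9 are named too. The 9 genes and the lists were chosen with earlier results of these data known. Alternatives were another normalization, filters, DESeq2, the groups compared alone, blocks, summed paralogs, and leaving out each library.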

Additional observations from a re-analysis of the deposited data

Results flagged for a closer look

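Of 52 groups of 6 libraries examined for a single library far from the others, 3 had one, and chance gives about 1 in 20. Erap1 was lowest in replicate 4 of the Jak2V617F vehicle group, at 149 CPM. The ratio of B2m to the summed heavy chains, per kilobase, was highest in replicate 6 of the WT pegIFN group, at 0.969. The ratio of Tap1 to Tap2, per kilobase, was highest in replicate 5 of the WT pegIFN group, at 2.62.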

How the results depend on the processing

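Of the 9 genes, 6 were called higher with pegIFN in each genotype under every alternative run, including each of 24 single libraries left out. Calls of lower genes were close to the threshold. In WT cells they numbered 1, against 2 under DESeq2, upper-quartile factors, a filter of 1 CPM in 12 libraries, the groups compared alone, a block on replicate number, voom with a random mouse term and without the 2 libraries between the others on Xist (the sex-linked pair), and 0 with no filter and without the 2 mice with high B cell markers. In Jak2V617F cells they numbered 2, against 0 with no filter, the groups compared alone, without the sex-linked pair and without those mice. With 1 library left out the range was 0 to 2 in both genotypes. For Jak2V617F over WT under pegIFN, genes of the set called lower were 0, against 1 with the groups alone, 3 with the replicate block (mouse) and 2 with voom; called higher, 0 against 1 with the mouse block; with 1 library out, 0 to 1 lower. All genes called were 1364, against 3910 (mouse block), 3859 (voom), 653 (without the sex-linked pair), 450 (without the B marker mice) and 593 to 2051 with 1 library out. Under vehicle, genes of the set called lower were 0, against 3 (mouse block), 1 (voom) and 0 to 1; all genes were 2018, against 1152 (groups alone), 4944, 5257, 999, 403 and 929 to 2650 in the same order. The interaction called 0 genes, against 38 by DESeq2, 528 with the mouse block, 281 with voom and 0 to 36 with 1 library out. Interactions near 0 changed sign: with no filter H2-K1 (-0.0207), H2-D1 (-0.0162), Tap2 (-0.0039) and Erap1 (-0.0131); Erap1 with the mouse block (-0.0034) and voom (-0.0039); without the sex-linked pair Tap2 (-0.0061) and Tapbpl (0.0548); without the B marker mice H2-D1 (-0.0037) and Erap1 (-0.0235); and H2-K1 and H2-D1 with paralogs summed (-0.0289). With 1 library out, the interaction ranged from -0.048 to 0.0397 for H2-K1, -0.0471 to 0.042 for H2-D1, -0.023 to 0.054 for Tap2, -0.1536 to 0.0273 for Tapbpl and -0.082 to 0.0413 for Erap1, and the vehicle genotype difference from -0.0727 to 0.0466 for B2m and -0.0855 to 0.0575 for Tap1. The causes were not tested. The interaction with only the groups compared and the set's counts with summed paralogs were not run.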
